A study of Mus musculus with 28 samples.

Results

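Nt5e and related genes of extracellular purine handling were followed on 28 microarrays of peritoneal resident macrophages from mice, long-lived macrophages of the peritoneal cavity. The set names 8 genes for ecto-nucleotidases and purine receptors. A gene was included when a probe set carried its symbol alone, and the probe set with the highest mean signal over all arrays stood for it. This left 5 of the 8 genes, out of 13512 genes tested on the arrays, namely Nt5e, Entpd1, P2rx4, P2rx7 and P2ry6, each with 1 such probe set. All 5 passed the filter on low signals. The only probe set naming Adora3 also names Tmigd3, so it was not used, and Adora2a and Adora2b were not analysed here. The probe sets were chosen by their mean log2 signal, so the level of a gene over all arrays is a description. The genes were also chosen with earlier results of these arrays known, among them the low Nt5e signal in the knockout, and for that reason Nt5e was not tested in the knockout.

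The 7 groups had 4 arrays each, and all mice were of C57BL/6 background. Mice lacking ATF7, a transcription factor related to CREB that stress kinases phosphorylate, received no injection and were set against wild-type mice without injection. Wild-type mice of the other groups were injected into a vein with LPS (from E. coli O111:B4), PGN, imiquimod (IMQ) or β-glucan (BG), or with PBS as their control, and are labelled as sampled 3 weeks later. For the injected mice the protocol gives 7 to 8 weeks of age at injection, an interval of 3 to 4 weeks and 10 to 12 weeks of age at sampling. No age is recorded here for the uninjected wild-type and knockout mice. LPS is sensed by TLR4, imiquimod by TLR7 and β-glucan by dectin-1. After a night in serum-free culture, cells that had not attached were washed away. The sources used here do not give the deleted part of Atf7, the cells in which it was deleted, the doses, the sex of the mice or the number of mice behind an array. The arrays are described as biologically independent.

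Cells release ATP, ADP and UDP when stressed or damaged, and enzymes on the cell surface break these nucleotides down. CD39, the product of Entpd1, removes phosphates from ATP and ADP to leave AMP, and CD73, the product of Nt5e, turns AMP into adenosine. The nucleotides themselves act on P2 receptors. P2rx4 and P2rx7 encode cation channels opened by ATP, of which the P2rx7 channel is known for activating the NLRP3 inflammasome in macrophages, and P2ry6 encodes a G protein-coupled receptor for UDP. Adenosine acts on P1 receptors, which in macrophages are known for restraining inflammatory cytokine output.

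Because the knockout removes a DNA-binding factor, the sequences upstream of the members' transcription starts are shown for the genes whose signals differed most clearly between the groups. They are the 250 bases before annotated starts, taken from RefSeq (GRCm38.p6), all on the plus strand and written 5′ to 3′. Both starts of Entpd1 and the first of the starts listed for P2rx7 are given, and P2ry6 had no entry. Both strands were searched, and capitals mark matches to TGACG, the half-site of the cyclic AMP response element bound by ATF/CREB factors or to the AP-1 site TGACTCA. All matches lay on the minus strand, so the capitals show the reverse complement.
Nt5e (chr9:88327359-88327608): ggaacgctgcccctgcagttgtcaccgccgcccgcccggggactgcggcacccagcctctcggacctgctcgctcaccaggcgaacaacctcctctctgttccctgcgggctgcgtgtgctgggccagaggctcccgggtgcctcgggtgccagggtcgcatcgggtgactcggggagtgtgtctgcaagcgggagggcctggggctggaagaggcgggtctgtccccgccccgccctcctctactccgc
Entpd1, upstream start (chr19:40612116-40612365): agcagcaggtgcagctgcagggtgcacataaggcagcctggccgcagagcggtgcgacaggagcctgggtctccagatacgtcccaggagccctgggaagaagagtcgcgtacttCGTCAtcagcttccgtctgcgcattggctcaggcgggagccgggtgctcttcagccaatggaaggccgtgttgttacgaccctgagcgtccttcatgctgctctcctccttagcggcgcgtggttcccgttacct
Entpd1, downstream start (chr19:40659520-40659769): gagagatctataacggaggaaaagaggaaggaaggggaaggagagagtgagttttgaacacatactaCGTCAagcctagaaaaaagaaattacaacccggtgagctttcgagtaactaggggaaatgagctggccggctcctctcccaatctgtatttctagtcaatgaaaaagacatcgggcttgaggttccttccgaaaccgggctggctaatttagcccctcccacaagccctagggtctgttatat
P2rx4 (chr5:122707294-122707543): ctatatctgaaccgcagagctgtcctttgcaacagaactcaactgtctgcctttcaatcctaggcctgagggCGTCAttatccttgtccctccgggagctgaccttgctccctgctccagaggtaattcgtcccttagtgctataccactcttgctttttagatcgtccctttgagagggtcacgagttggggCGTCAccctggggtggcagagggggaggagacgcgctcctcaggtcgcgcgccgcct
P2rx7, first start (chr5:122643677-122643926): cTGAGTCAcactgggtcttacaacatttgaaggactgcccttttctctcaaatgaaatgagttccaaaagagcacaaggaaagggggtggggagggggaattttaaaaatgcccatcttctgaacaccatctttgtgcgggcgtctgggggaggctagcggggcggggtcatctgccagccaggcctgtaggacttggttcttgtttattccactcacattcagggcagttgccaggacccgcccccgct
The full cyclic AMP response element TGACGTCA, which contains the half-site, was found in none of these windows and in 1.55% of 32851 promoter windows of the same length. The half-site was found once before each Entpd1 start and in 2 places before P2rx4, against 17.8% of all windows with at least 1. The AP-1 site was found once before the P2rx7 start shown, against 4.46% of all windows, and none of the 3 motifs was found before the other listed start of P2rx7. No such match lay in the Nt5e window, where G and C made up 72.0% of the bases against a median of 52.4% over all windows. A match describes letters and not binding.

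Signals are log2 of the processed array signal, and a background floor was set at 6.32, the level that 95 of 100 probe sets of olfactory and vomeronasal receptors did not exceed. Genes were tested with limma over all genes, and a gene was called at an adjusted p under 0.05. Arrays of a group correlated at 0.989 to 0.997 over the tested genes. Atf7 itself was lower in the knockout by both of its probe sets, at 7.08 ± 0.104 against 9.97 ± 0.11 in wild type and at 10.28 ± 0.042 against 10.73 ± 0.079 (SD, n = 4 arrays each), which matched the labels. The second probe set, the one tested, was also lower after BG than after PBS (10.46 ± 0.066 against 10.71 ± 0.113, limma adjusted p = 9.8e-05). The first was at 9.705 ± 0.086 after BG against 10.037 ± 0.225 after PBS. All 15 measured markers of large peritoneal macrophages, Gata6 and Timd4 among them, were above the floor on every array. Of 12 mast cell markers, 7 were above it on no array (Cpa3, Cma1, Mcpt4, Tpsab1, Ms4a2, Fcer1a and Mrgprb1) and 2 on every array (Hdc and Gata2). Of 12 T and NK cell markers, 6 were above it on no array (Cd3d, Cd3g, Ncr1, Klrb1c, Eomes and Gzma) and 1 on every array (Cd5). Cd3e and Cd2 were above it on 27 arrays each. Of 11 markers of small macrophages and dendritic cells, 4 were above it on every array and 3 on none. Of 17 B cell markers, however, 14 were above it on every array and only 2 on none (Cr2 and Fcer2a). Of 13 neutrophil and eosinophil markers 1 was above it on every array and 6 on none. Of 14 stroma and mesothelium markers 5 were above it on every array and 1 on none. In RNA from a whole population, fewer cells of a type and less RNA per cell cannot be told apart.

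Nt5e, whose product forms adenosine outside the cell, separated the arrays into 2 levels. Its log2 signal was 6.35, 6.25, 6.89 and 6.52 in the knockout, against 9.50, 8.78, 8.80 and 8.41 in wild type. After BG it was 7.01, 7.19, 6.39 and 7.07, against 9.17, 8.12, 8.90 and 8.18 after PBS. All knockout arrays and all BG arrays lay below every array of the other 5 groups. The lowest array outside the knockout and BG groups was PGN replicate 3 at 7.92. Of all genes, 21.9% separated the knockout from wild type without overlap and 40.7% separated BG from PBS. How many genes set both groups apart from the other 5 was not counted. Of the knockout arrays 1 lay under the background floor, and BG replicate 3, at 6.39, lay just above it.

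The knockout mean of Nt5e was 6.50 ± 0.28 against 8.88 ± 0.454 in wild type, 5.18-fold lower (SD, n = 4 each), which is given as a description. After BG the mean was 6.91 ± 0.359 against 8.59 ± 0.522 after PBS, a fall of 3.20-fold (95% interval of the log2 difference -2.15 to -1.21, limma adjusted p = 1.9e-06). This call held in each alternative fit run, with an adjusted p from 7.05e-07 to 0.000332. Nt5e was also lower after BG than after each other ligand in direct tests. The log2 difference was -1.34 from PGN (adjusted p = 4.96e-05) and -1.67 from IMQ (adjusted p = 2.39e-06), and the LPS group exceeded the BG group by 1.55 (adjusted p = 7.42e-06).

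After LPS the log2 signal of Nt5e was 8.74, 8.13, 8.64 and 8.34, after PGN 8.68, 8.26, 7.92 and 8.17, and after IMQ 8.65, 8.88, 8.41 and 8.39. Each of these groups overlapped the PBS arrays, and none passed (limma adjusted p of 0.695, 0.461 and 0.984). The 95% intervals of the log2 difference from PBS ran from -0.60 to 0.33 for LPS, from -0.80 to 0.13 for PGN and from -0.48 to 0.45 for IMQ, so changes within those bounds are not excluded. PBS did not differ from wild type by the test either (log2 difference -0.28, 95% interval -0.75 to 0.18, adjusted p = 0.34). In the order of means, wild type came first, followed by PBS, IMQ, LPS, PGN, BG and the knockout, and the ranges of neighbours in that order overlapped except between PGN and BG.

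**Figure D1:**
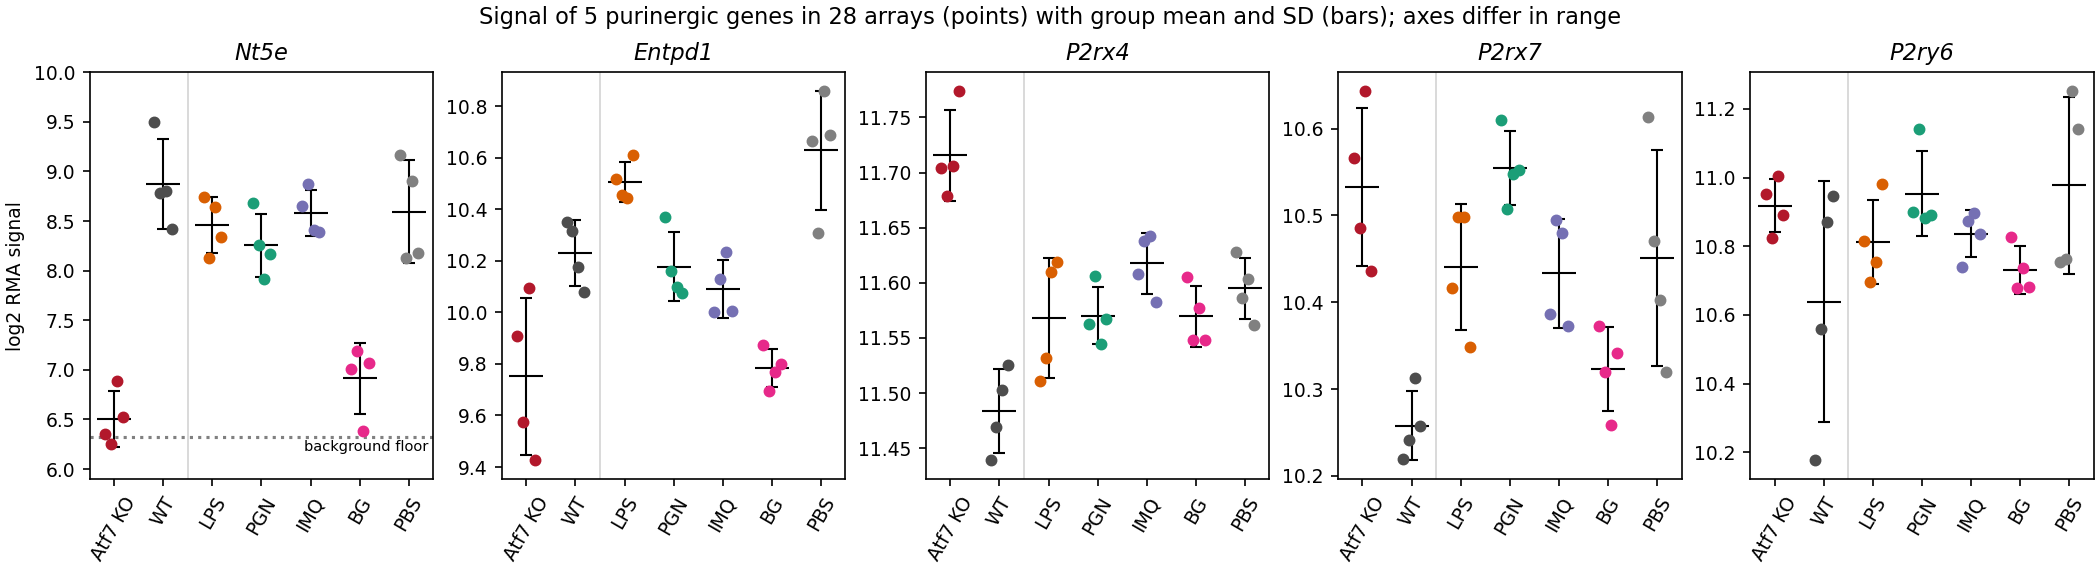
Log2 signal (vertical axes, which differ in range) of Nt5e, Entpd1, P2rx4, P2rx7 and P2ry6 on every array, with the group mean and SD as bars and the knockout and its wild type left of the line. Nt5e and Entpd1 are lowest in the knockout and BG groups, while P2rx4 and P2rx7 are lowest in wild type.

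Entpd1, the enzyme that supplies AMP to CD73, was also low in the knockout and after BG, with smaller differences than Nt5e. Its log2 signal was 9.91, 9.58, 10.09 and 9.43 in the knockout, against 10.35, 10.32, 10.18 and 10.08 in wild type. The knockout group fell 1.39-fold (9.75 ± 0.305 against 10.23 ± 0.127, SD, n = 4 each, limma adjusted p = 0.00142), and only knockout replicate 3 reached into the wild-type range. With the mean of 15 B cell markers as a covariate the difference was -0.91 on the log2 scale against -0.48 without it (adjusted p = 0.00109).

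After BG the log2 signal of Entpd1 was 9.87, 9.70, 9.77 and 9.80, against 10.66, 10.31, 10.86 and 10.69 after PBS. All BG arrays lay below all PBS arrays, and the fall was 1.79-fold (9.79 ± 0.0739 against 10.63 ± 0.23, adjusted p = 1.01e-06). After IMQ the signals were 10.00, 10.13, 10.23 and 10.00, again below every PBS array, and the fall was 1.45-fold (adjusted p = 0.0035). After PGN they were 10.37, 10.16, 10.10 and 10.08, with only PGN replicate 1 above the lowest PBS array, and the fall was 1.37-fold (adjusted p = 0.0166). The PGN call ended without PBS replicate 3 (adjusted p = 0.0753), PGN replicate 3 (0.0562) or PGN replicate 4 (0.0627), and when only the compared groups were fitted (0.0518).

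LPS was the exception among the ligands for Entpd1. The LPS arrays were at 10.52, 10.46, 10.44 and 10.61, inside the range of the PBS arrays, and did not pass (log2 difference -0.12, 95% interval -0.35 to 0.10, adjusted p = 0.428). In direct tests Entpd1 was higher after LPS than after BG by 0.72 (adjusted p = 1.1e-05), than after IMQ by 0.41 (0.0103) and than after PGN by 0.33 (0.0469), all on the log2 scale. The call against PGN was lost in 11 of 18 alternative fits, 7 of which left out 1 array (LPS replicate 1, 2, 3 or 4 or PGN replicate 2, 3 or 4; adjusted p from 0.053 to 0.107). The call against IMQ was lost with the B cell covariate (0.0794). The BG group was below PGN by 0.39 (adjusted p = 0.00695) and below IMQ by 0.31 (0.0288). The call against IMQ ended without IMQ replicate 2 or 3 or BG replicate 2 or 3 (adjusted p from 0.0569 to 0.101) and when the arrays were quantile-normalised again (0.0877).

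All 4 ligand comparisons share the PBS arrays, in which Entpd1 was itself 1.32-fold higher than in wild type (10.63 ± 0.23 against 10.23 ± 0.127, limma adjusted p = 0.00791). Wild type lay between the LPS group and the PGN group in the order of means. The ranges of neighbours in that order were separate only between LPS and wild type and between IMQ and BG.

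The ATP-gated channels P2rx4 and P2rx7 were higher in the knockout, by small amounts relative to the nucleotidases but with little spread. P2rx4 was at 11.70, 11.68, 11.71 and 11.77 in the knockout, against 11.44, 11.47, 11.50 and 11.53 in wild type. Every knockout array lay above every wild-type array, and above every array of the other 5 groups as well. The rise was 1.17-fold (11.72 ± 0.041 against 11.48 ± 0.038, SD, n = 4 each, limma adjusted p = 4.07e-06). P2rx7 was at 10.57, 10.49, 10.64 and 10.44 in the knockout, against 10.22, 10.24, 10.31 and 10.26 in wild type, again without overlap. Its rise was 1.21-fold (10.53 ± 0.0912 against 10.26 ± 0.0399, adjusted p = 0.000234), and the call was lost with the B cell covariate, where the log2 difference was 0.23 (adjusted p = 0.129). These genes are neighbours on chromosome 5.

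None of the ligands gave a called change of P2rx4 or P2rx7 against PBS. P2rx4 ranged from 11.51 to 11.62 after LPS, from 11.54 to 11.61 after PGN, from 11.58 to 11.64 after IMQ and from 11.55 to 11.61 after BG, against 11.56 to 11.63 after PBS. The 95% intervals of its 4 log2 differences lay between -0.09 and 0.09. P2rx7 after BG was at 10.37, 10.32, 10.26 and 10.34, against 10.61, 10.47, 10.40 and 10.32 after PBS. That difference was -0.13 and narrowly missed the threshold (95% interval -0.24 to -0.02, adjusted p = 0.0504), and it passed in 6 of 18 alternative fits, among them those without PBS replicate 3 (0.0474), PBS replicate 4 (0.0119) or BG replicate 1 (0.0456). The highest P2rx7 group was PGN, at 10.61, 10.51, 10.55 and 10.55, which was not called against PBS (adjusted p = 0.303), while the BG group was below PGN by 0.23 in the direct test (adjusted p = 0.00119).

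P2ry6, the UDP receptor gene, spread more between the arrays of wild type and PBS than between those of its other groups. It was at 10.95, 10.82, 11.01 and 10.89 in the knockout, against 10.18, 10.56, 10.87 and 10.95 in wild type. The knockout arrays lay within the upper part of the wild-type range or just above it, and the difference of 0.28 did not pass (95% interval 0.04 to 0.52, adjusted p = 0.0738). Without wild-type replicate 3 (adjusted p = 0.0286) or 4 (0.0142), or with arrays centred on their medians (0.0327), it passed, and with the B cell covariate it was -0.02 (0.978).

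Among the injected groups P2ry6 was at 10.83, 10.68, 10.74 and 10.68 after BG, against 10.75, 10.76, 11.25 and 11.14 after PBS. The BG difference was -0.25 (95% interval -0.49 to -0.01, adjusted p = 0.0902), and it passed without PBS replicate 1 (0.0405) or 2 (0.0433), with array weights (0.0095) and with the B cell covariate (0.0295). Signals ranged from 10.70 to 10.98 after LPS, from 10.88 to 11.14 after PGN and from 10.74 to 10.90 after IMQ, and none of these groups passed (adjusted p of 0.312, 0.94 and 0.526).

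The mice injected with PBS differed from uninjected wild type in 4 of the 5 genes, all higher, where 32.7% of all genes tested were called and 19.7% were called as higher. Besides Entpd1 these were P2rx4 (1.08-fold, 11.59 ± 0.0279 against 11.48 ± 0.038, limma adjusted p = 0.0104), P2rx7 (1.14-fold, 10.45 ± 0.124 against 10.26 ± 0.0399, adjusted p = 0.00725) and P2ry6 (1.27-fold, 10.98 ± 0.258 against 10.64 ± 0.351, adjusted p = 0.0285). All PBS arrays lay above all wild-type arrays for P2rx4 and P2rx7, as for 14.1% of all genes, but not for P2ry6 or Entpd1. The P2ry6 call ended without wild-type replicate 1 (adjusted p = 0.18) or 2 (0.0825), without PBS replicate 3 (0.121) or 4 (0.0894), and with array weights (0.0618). When only these 2 groups were fitted, 1 of the 5 genes was called, Entpd1. This comparison shares its wild-type arrays with the knockout comparison, so the rises of P2rx4 and P2rx7 in both are not independent. The age of the uninjected mice is not recorded here, so the injection and any difference in age cannot be told apart.

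**Figure D2:**
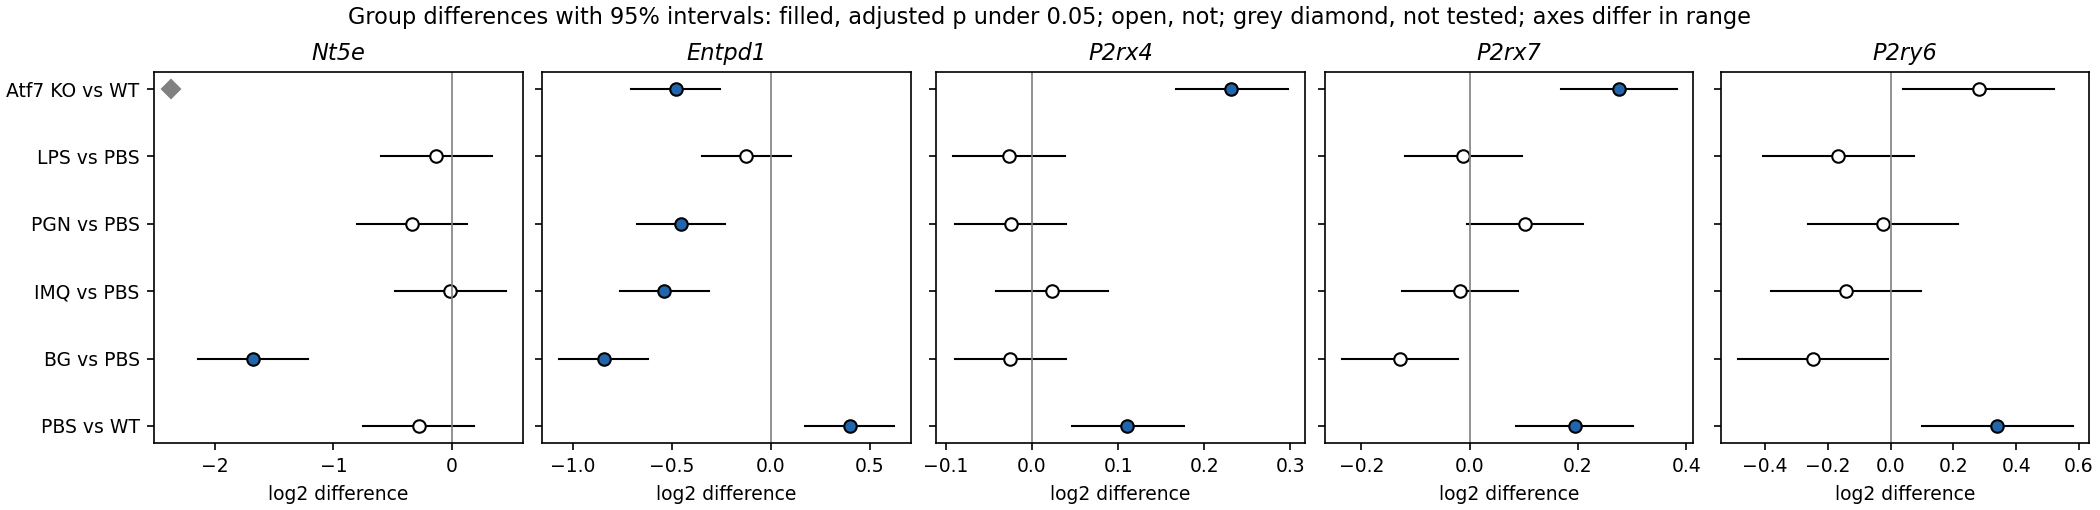
Log2 difference between groups (horizontal axes, which differ in range) for the 5 genes in 6 comparisons, with 95% intervals as lines. Filled points have an adjusted p under 0.05, open points do not, and the grey diamond marks the untested Nt5e difference in the knockout.

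Counted over the set, 3 of the 4 genes tested in the knockout were called, Entpd1 as lower and P2rx4 and P2rx7 as higher, where 28.3% of all genes were called, 17.7% as higher and 10.7% as lower. Both channel genes also separated the groups without overlap, as did 21.9% of all genes in either direction. After BG 2 of 5 genes were called, both lower, beside 41.6% of all genes called and 21.4% called as lower, so that share is near the background, and the same 2 genes separated the groups without overlap beside 40.7% of all genes in either direction. IMQ gave 1 call of 5, Entpd1, beside 5.69% of all genes called, 2.6% called as lower and 15.2% without overlap in either direction. PGN also gave 1 call of 5, Entpd1, beside 3.91% of all genes called and 1.81% called as lower. After LPS limma called 0 of 5, with 0 of 5 at an unadjusted p under 0.05 as well, beside 9.88% of all genes. Between ligands 2 of 5 were called for LPS against BG (34.9% of all genes), 1 for LPS against PGN (12.1%), 1 for LPS against IMQ (19.2%), 3 for BG against PGN (31.8%) and 2 for BG against IMQ (36.7%).

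Whether the knockout effect differed from a ligand effect was tested directly, in comparisons that share no arrays. Each contrast also holds the difference between the controls, PBS and wild type. On the log2 scale PBS was higher by 0.11 for P2rx4, 0.19 for P2rx7, 0.34 for P2ry6 and 0.40 for Entpd1. The P2ry6 mean was 10.92 in the knockout, 10.81 after LPS and 10.98 after PBS, against 10.64 in wild type. The knockout effect on P2rx4 exceeded the LPS effect by 0.26 and the BG effect by 0.26 on the log2 scale (limma adjusted p of 0.000188 and 0.000119). For P2rx7 the excess was 0.29 over LPS and 0.40 over BG (adjusted p of 0.00589 and 0.000208), and with the B cell covariate the excess over LPS was 0.24 and no longer passed (0.127). P2ry6 showed an excess of 0.45 over LPS and 0.53 over BG (adjusted p of 0.0429 and 0.0178). The call of the P2ry6 difference from LPS was lost in 13 of 26 alternative fits, 10 of which left out 1 array (wild-type replicate 1 or 2, knockout replicate 1, 2 or 3, PBS replicate 3 or 4, or LPS replicate 1, 2 or 3; log2 difference from 0.29 to 0.48, adjusted p from 0.0501 to 0.118). With the B cell covariate it was 0.17 (0.624), and the P2ry6 difference from BG was then 0.36 (0.156). For Entpd1 the difference was -0.36 from LPS (95% interval -0.67 to -0.04, adjusted p = 0.0787) and 0.36 from BG (0.05 to 0.68, adjusted p = 0.0756), neither of which passed. The first passed without knockout replicate 3 (0.0166) or PBS replicate 3 (0.0421) and with the B cell covariate (0.0131), and the second without knockout replicate 4 (0.0153) or PBS replicate 2 (0.0182), with arrays centred (0.0344) and with array weights (0.0165). The Nt5e difference between the knockout effect and the BG effect was -0.69, which is given without a test. In all, 3 of the 4 genes tested were called in each contrast, beside 29.3% of all genes for LPS and 29.1% for BG.

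Markers of B cells, of large peritoneal macrophages and of small macrophages and dendritic cells also differed in the knockout. In the knockout 13 of 15 tested B cell markers fell and none rose, beside 10.7% of all genes called as lower, and the summed linear signal of all 17 markers on the array was 6735 to 8064 against 8818 to 12437 in wild type. The median log2 difference of the 15 was -1.02. The sum weighs the strongest marker most, Cd37, which was at 11.65 in the knockout against 11.89 in wild type. After BG 6 of the 15 fell and 1 rose (median -0.40), beside 21.4% of all genes called as lower, with sums of 8165 to 8781 against 10279 to 12044 after PBS. B cells can themselves carry CD73. With the B cell marker mean as a covariate the Nt5e difference was -2.46 in the knockout and -1.72 after BG (adjusted p = 2.86e-05 for BG), against -2.37 and -1.68 without it. That mean itself followed the groups, at 7.97 ± 0.223 in the knockout against 8.79 ± 0.294 in wild type. It was 8.38 ± 0.064 after BG against 8.73 ± 0.163 after PBS. The covariate therefore rests on the spread within groups and cannot settle the part of B cells. Of 15 markers of large peritoneal macrophages 7 fell and 1 rose in the knockout, beside the same 10.7% of all genes, with sums of 44507 to 50384 against 55471 to 61168 in wild type. After BG 8 fell and 1 rose, beside the same 21.4%, with sums of 39533 to 43440 against 48450 to 59212 after PBS. These sums too weigh the strongest markers most, and the markers did not move alike. In the knockout Thbs1 was at 12.09 against 13.19 in wild type, Lyz2 at 13.22 against 13.31 and Csf1r at 12.68 against 12.69. Timd4 was higher there, at 11.75 against 11.08. After BG Thbs1 was at 10.92 against 12.93 after PBS, and Lyz2 at 13.25 against 13.30. Of 7 tested markers of small macrophages and dendritic cells 4 fell and none rose in the knockout, beside the same 10.7% of all genes. All 11 on the array summed to 1853 to 2321 against 2382 to 3023 in wild type. After BG 2 of the 7 fell and 2 rose, beside 21.4% of all genes called as lower and 20.2% as higher, with sums of 2528 to 2658 against 2529 to 3018 after PBS. The part of these macrophage and dendritic cell markers in the Nt5e and Entpd1 results was not tested.

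Over all 28 arrays the gene whose signal ran most like that of Nt5e was Gata6, the transcription factor that maintains large peritoneal macrophages (Pearson r = 0.957). Gata6 was at 8.97 ± 0.234 in the knockout against 10.48 ± 0.268 in wild type, and at 9.41 ± 0.133 after BG against 10.35 ± 0.229 after PBS. Next came Vgll4, a cofactor of TEAD factors (0.955), Dennd4a (0.955), Ssh2, a phosphatase acting on cofilin (0.953), and Oscp1 (0.95). The lowest coefficients were those of Ralgds (-0.913), Rasgef1b (-0.906) and the kinase gene Plk2 (-0.902). These values follow the split of the knockout and BG arrays from the rest and describe the 28 arrays, which share their groups. With each group's mean subtracted, the coefficient of Gata6 was 0.755, and the highest were Htra3 (0.877), Vnn3 (0.815), Tent5a (0.815), Adipor2 (0.806) and Zmynd11 (0.800). Between Nt5e and Entpd1 the coefficient was 0.752 over all arrays and 0.469 with group means subtracted. Between the neighbours P2rx4 and P2rx7 it was 0.556 and 0.138.

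**Figure D3:**
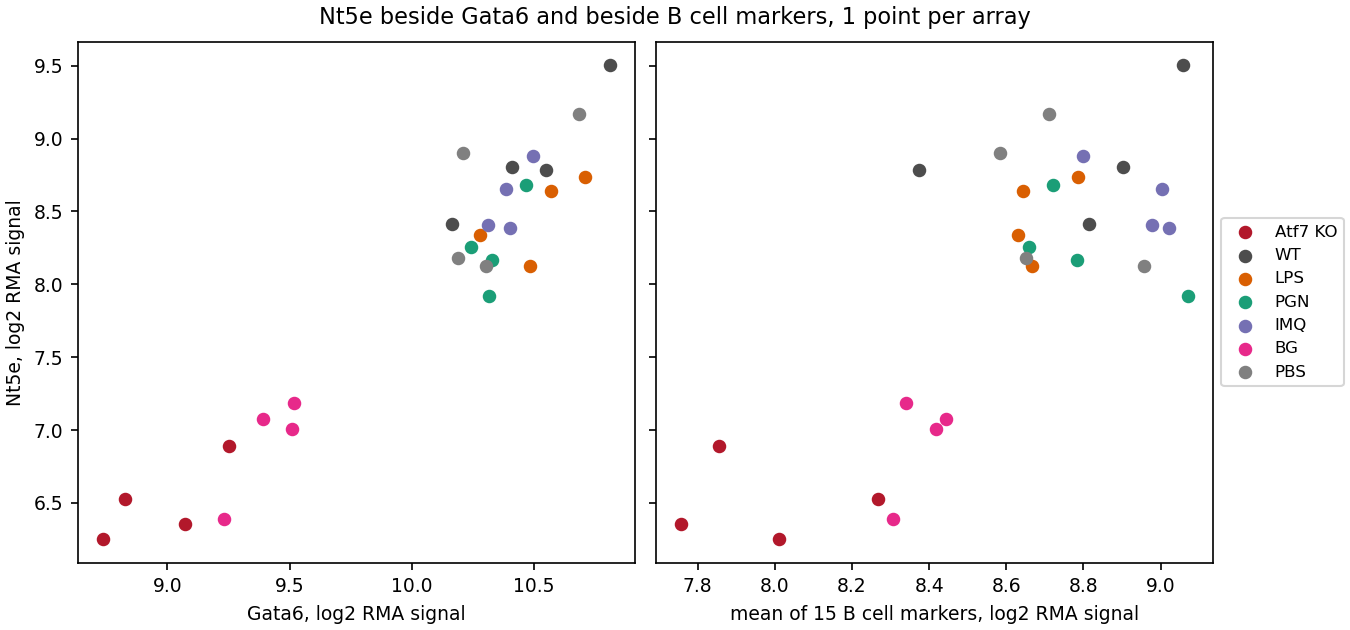
Log2 signal of Nt5e (vertical axis) against that of Gata6 (left) and against the mean log2 signal of 15 B cell markers (right), 1 point per array, coloured by group. The knockout and BG arrays lie at the low end of Nt5e and Gata6, whereas on the B cell axis 1 wild-type array lies among the BG arrays.

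Other genes of the purine pathway were counted from 4 lists with 76 genes, of which 53 were tested. In the knockout 14 rose and 9 fell (median log2 difference 0.03, against 0.005 over all genes), where 17.7% of all genes were called as higher and 10.7% as lower. The genes that take adenosine up and process it inside the cell contributed 9 of the rises and 3 of the falls among 21 tested, beside those same shares of all genes. Slc28a2, a concentrative nucleoside transporter gene, rose 1.76-fold (9.04 ± 0.347 against 8.22 ± 0.118, limma adjusted p = 4.83e-06), and Slc29a1, an equilibrative one, 1.47-fold (1.99e-05). The cytosolic nucleotidase gene Nt5c3 rose 1.67-fold (9.89e-06). Ampd2, an AMP deaminase gene, fell 1.25-fold (0.000178) and Gda, the guanine deaminase gene, 1.36-fold (0.000447). The calls of Slc29a1, Ampd2 and Gda were lost with the B cell covariate (0.0935, 0.222 and 0.594).

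Among the other groups of that comparison, ectoenzymes gave 2 rises and 1 fall of 12. The fall was Enpp5, of the ectonucleotide pyrophosphatase family, which dropped 2.09-fold (7.23 ± 0.201 against 8.29 ± 0.145, adjusted p = 2.51e-06). Release channels and transporters went both ways, 3 up and 3 down of 11. Ank, whose product exports pyrophosphate and ATP, fell 1.43-fold (5.7e-07), and the volume-regulated anion channel gene Lrrc8a rose 1.17-fold (0.000132). Of 9 other receptors, 2 fell and none rose.

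After BG 9 of the 53 rose and 15 fell (median -0.03, against 0.02 over all genes), where 20.2% of all genes were called as higher and 21.4% as lower. Lpar6, a P2Y-like receptor for lysophosphatidic acid, fell 2.07-fold (9.52 ± 0.189 against 10.57 ± 0.341, limma adjusted p = 4.86e-07). Entpd7, a relative of Entpd1 that acts inside the cell, fell 1.41-fold (8.98 ± 0.0434 against 9.47 ± 0.0393, adjusted p = 1.01e-08), and the adenosine deaminase-like gene Adal fell 1.34-fold (4.47e-06) and Lrrc8b 1.30-fold (2.98e-05). The ATP-gated channel gene P2rx5 rose 1.30-fold (0.000377), the nucleotidase gene Nt5c 1.22-fold (8.21e-05), the ATP release channel gene Panx1 1.23-fold (0.00321) and Vdac1 1.14-fold (0.00188). Of these genes Panx1 was also called as higher in the knockout (0.00348), and Lpar6 (0.0328) and Lrrc8b (0.00866) as lower. Of the genes named for the knockout, Slc28a2 (0.0405) also rose after BG, while Enpp5 (0.00836) and Lrrc8a (0.00214) fell.

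For LPS, PGN and IMQ 3, 3 and 1 of the 53 genes were called, beside 9.88%, 3.91% and 5.69% of all genes. After LPS 2 rose and 1 fell. Enpp5 rose 1.55-fold (adjusted p = 0.0149), and this call ended without PBS replicate 3 (0.051) or LPS replicate 2 (0.0718). Panx2 rose 1.16-fold (0.0398) and Lpar6 fell 1.33-fold (0.0455), but the Panx2 call ended without PBS replicate 2, 3 or 4 or LPS replicate 1 or 2 (up to 0.166), and that of Lpar6 without PBS replicate 1, 3 or 4 or LPS replicate 1, 2 or 3 (up to 0.163). After PGN the adenosine deaminase gene Ada rose 1.19-fold (0.0154), and Ampd3 (1.25-fold, 0.0174) and Entpd6 (1.17-fold, 0.0362) fell. The Ada call ended without PBS replicate 3 (0.064), that of Ampd3 without PBS replicate 3 or 4 or PGN replicate 1 or 3 (up to 0.0697), and that of Entpd6 without PBS replicate 1, 3 or 4 or PGN replicate 1, 3 or 4 (up to 0.136). After IMQ 1 gene was called, Ampd3, 1.22-fold lower (0.0308), and the call ended without PBS replicate 3 or 4 or IMQ replicate 1, 2 or 3 (adjusted p from 0.0748 to 0.115). In PBS against wild type 16 rose and 7 fell, where 32.7% of all genes were called and 19.7% as higher, with Entpd7 (1.23-fold, 9.61e-05), Lrrc8b (1.20-fold, 0.00351), Entpd5 (1.20-fold, 0.00354) and Slc29a3 (1.16-fold, 0.00726) among the rises and Panx2 (1.19-fold, 0.00483), Abcc6 (1.19-fold, 0.00505) and Entpd3 (1.19-fold, 0.0122) among the falls. Abcc6 and Entpd3 also lay close to the floor, with PBS means of 6.52 and 6.58. The Entpd3 call ended without wild-type replicate 1 (0.057), and that of Slc29a3 when only PBS and wild type were fitted (0.0612). Entpd7 and Lrrc8b were thus higher in PBS than in wild type and lower after BG than after PBS, in comparisons that share the PBS arrays.

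**Figure D4:**
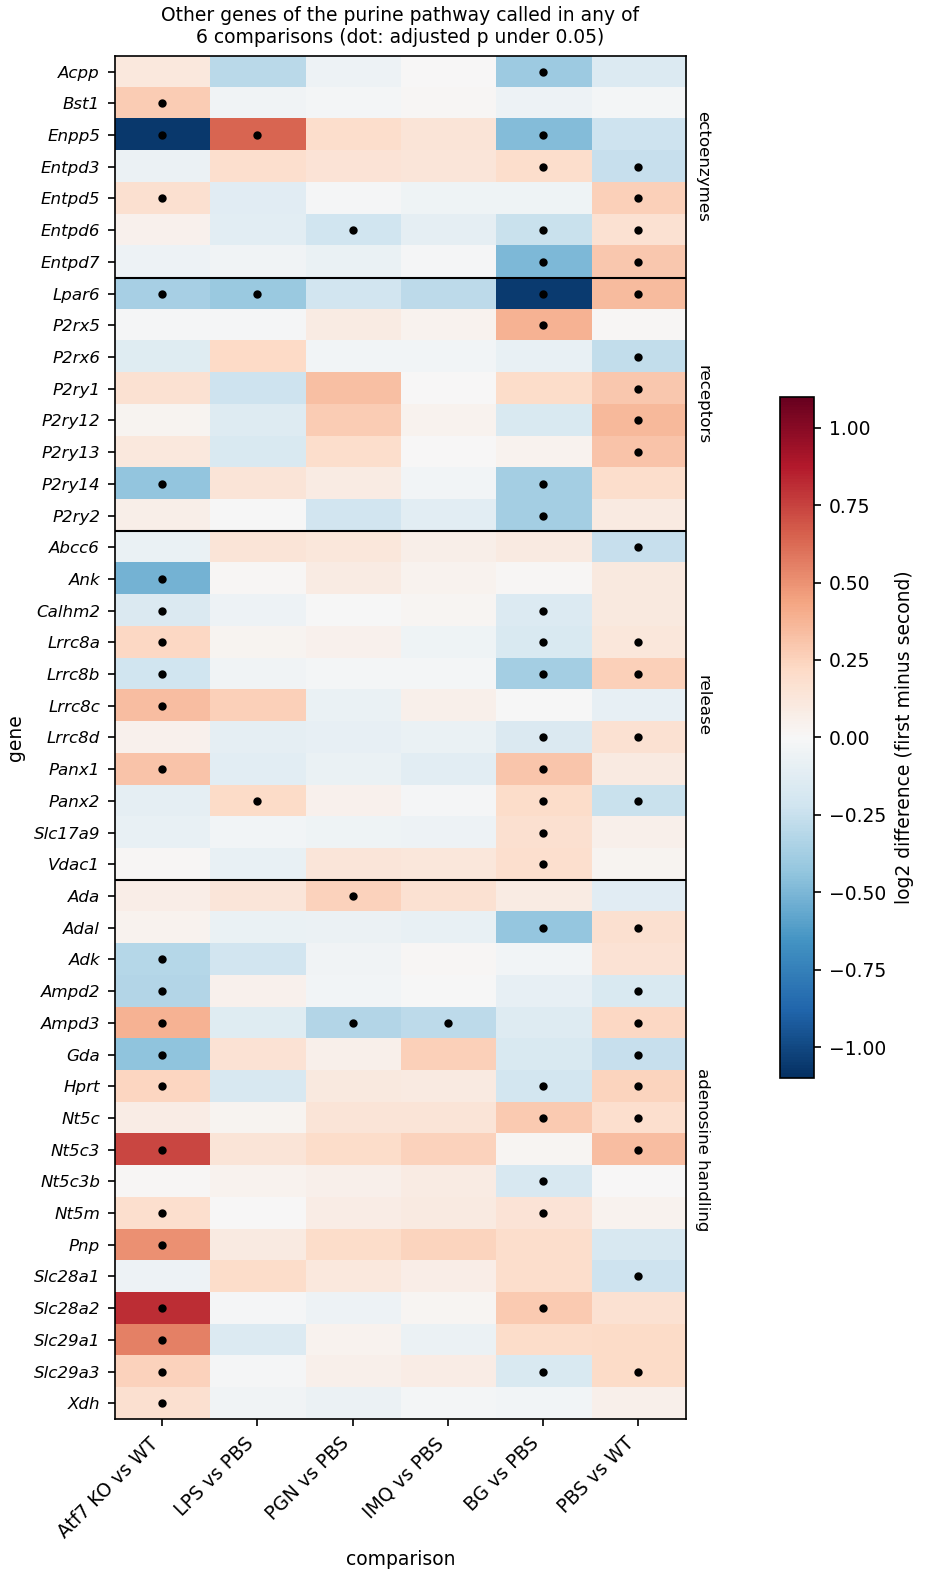
Log2 difference (colour, first group minus second) of the other purine pathway genes called in at least 1 of 6 comparisons, with genes in rows by role and comparisons in columns. Dots mark an adjusted p under 0.05, and they are frequent in the knockout, BG and PBS against wild type columns and rare for LPS, PGN and IMQ.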

How the data were processed

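Messenger RNA was measured on 28 one-colour arrays, 4 per group, grouped by the labels. The deposited values are 1 linear intensity per probe set and array, made by the authors with Affymetrix Expression Console and RMA (background correction, quantile normalisation, probe summary), per the submitters' processing notes. The sources used here name neither the software version nor a genome build. The median signal was 107 to 115 per array. The log2 was taken here without further scaling. Of 35556 probe sets, 21789 had 1 symbol, 1621 several and 12146 none. A probe set had to exceed the floor (6.32) on 4 arrays or more, and the highest-mean one per gene was tested, 13512 genes in all. The number of arrays limits the precision.

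Limma 3.58.1 (R 4.3.3) fitted 1 mean per group to all arrays with an intensity trend, and each comparison had its own Benjamini-Hochberg adjustment. The procedure was also run on simulated data, with noise drawn independently for each gene and shifts in the LPS group alone. Such data lack effects shared between genes or arrays, so this run does not vouch for the calls given here. The sources used here do not say how many mice stand behind an array, so p-values measure the spread between arrays. Alternatives covered scaling, filters, probe sets, variance model, array weights, a B cell covariate, a replicate block and single arrays left out. Replicate numbers were not used to pair the arrays, because in no comparison did every same-numbered pair have deviations correlating above 0.1. That rule cannot show that same-numbered arrays share nothing, and for PGN against PBS the coefficients were 0.258, 0.187, 0.112 and 0.048.

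Members, lists and tests were chosen with earlier results of these data known. Named pathway genes were the up to 4 called genes with the smallest p per direction and comparison. P2rx6 was not given a fold, because its PBS mean lay under the floor. Likeness was ranked by Pearson correlation, passing over predicted genes. Promoters came from RefSeq (GRCm38.p6). Plots used matplotlib 3.10.9 (Python 3.11.15).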

Additional observations from a re-analysis of the deposited data

Results flagged for a closer look

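The P2ry6 signal of PGN replicate 2, at 11.14, stood apart from the other PGN arrays. It was the only such array in 35 groups of 4 examined over the 5 genes, where chance gives about 1 in 20.

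The knockout effect differed from a ligand effect by the test of the difference itself in 6 cases. Against the LPS effect the log2 difference was 0.26 for P2rx4 (limma adjusted p = 0.000188), 0.29 for P2rx7 (0.00589) and 0.45 for P2ry6 (0.0429). Against the BG effect it was 0.26 for P2rx4 (0.000119), 0.40 for P2rx7 (0.000208) and 0.53 for P2ry6 (0.0178). None of these 3 genes was called for LPS or BG against PBS, and P2ry6 was not called in the knockout either (0.0738). All 3 were higher in PBS than in wild type, a difference between controls that enters each of these contrasts. The P2ry6 call against LPS was lost in 13 of 26 alternative fits, and with the B cell covariate the difference was 0.17 (0.624) against LPS and 0.36 (0.156) against BG. The P2rx7 call against LPS was lost with that covariate too (0.24, 0.127).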

How the results depend on the processing

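Under the alternatives the number of called genes was compared, not which genes were called. A limit of 1.5 times was used, which lets a change from 2 to 3 pass as kept. Of 250 counts made under an alternative, 228 kept within that limit. Exceptions were PGN against PBS with only the compared groups fitted (0 against 1), PBS against wild type with only those groups (1 against 4), LPS against PGN with arrays centred, with no filter on low signals, with no intensity trend or with the B cell covariate (0 against 1 each), LPS against IMQ with the B cell covariate (0 against 1) and BG against IMQ with quantile normalisation (1 against 2). In each of these Entpd1 or, for PBS against wild type, P2rx4, P2rx7 and P2ry6 lost the call. Why they were lost was not tested. Leaving out 1 array at a time gave 0 to 1 for PGN against PBS and for LPS against PGN, 1 to 2 for BG against IMQ, 3 to 4 for the knockout and for PBS against wild type, and 2 to 3 for BG against PBS. No called change of a named gene turned its direction. Of 31 changes of pathway genes named by the rule, 13 lost the call in at least 1 alternative, most often without 1 array (33 of 51 losses).

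Same-numbered arrays were not paired in the main fit, and correlations of their deviations ran from -0.353 to 0.446. For PGN against PBS 6 of 8 arrays correlated best with their own number, and 4 of 8 for LPS against PBS and for PBS against wild type. These values do not settle whether same-numbered arrays belong together. With the replicate number as a block the knockout count was 3, LPS 0, PGN 1, IMQ 1, BG 3 and PBS against wild type 4. P2rx7 after BG was the gene added (log2 difference -0.13, adjusted p = 0.042), and over all genes the calls numbered 5667 with the block against 5624 without it. Signal over background limits Nt5e in the knockout, where 1 array lay under the floor, and after BG, where replicate 3 was just above it at 6.39.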

Other observations

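Genes whose signals ran most like the other members over the 28 arrays were named by the same measure, Pearson correlation of log2 signals. For Entpd1 they were Tmem50b (0.912) and Mfge8 (0.911), which encodes a bridging protein for apoptotic cell uptake. Mfge8 was at 8.14 ± 0.165 in the knockout against 8.51 ± 0.061 in wild type, and at 8.30 ± 0.056 after BG against 8.78 ± 0.099 after PBS. For P2rx4 they were Gpr89 (0.867) and the cation channel gene Trpv4 (0.841), and Trpv4 was at 9.23 ± 0.077 in the knockout against 8.63 ± 0.233 in wild type. For P2rx7 they were Klhl38 (0.842) and Frmd4a (0.810). For P2ry6 they were Map11 (0.851) and C5ar1 (0.838), the receptor gene for the complement fragment C5a, and with group means subtracted these coefficients were 0.876 and 0.783. These are descriptions of 28 arrays that share their groups.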
